A study of Mus with 6 samples.

Results

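The miRNAs of the imprinted Dlk1-Dio3 region on mouse chromosome 12 were read from small RNA libraries of adipocytes. Members were all names of 47 miRNA families known from this region, with any copy and arm, and the rule used no level or difference. The tables listed 65 such names, of which 44 stood in all 6 tables and were analysed as members, among 929 known miRNA names found in all 6. Every name in the tables numbered 1 and 2 had at least 1 read in 1 of those 4 libraries, so to be listed there a miRNA had been detected. By their labels, 3 libraries are controls and 3 are from the model group under chronic intermittent hypoxia (CIH), in which oxygen drops again and again as it does in sleep apnoea. All 6 came from wild-type C57BL/6 adipocytes, and the comparison asks which miRNAs differ with CIH. The sources used here do not state the age of the animals, the fat depot, how many animals stand behind a library or how long CIH lasted. Values of a group are listed in the order of library number, 1 to 3, unless a number is named.

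The Dlk1-Dio3 region holds one of the largest groups of miRNA genes in mammals. Its coding genes, Dlk1, Rtl1 and Dio3, are expressed from the paternal chromosome, and its noncoding RNAs, Meg3, Rian, Mirg and the transcript antisense to Rtl1, from the maternal one. The miRNAs are cut from these maternal RNAs. Dlk1, also called Pref-1, marks preadipocytes and restrains their differentiation into fat cells. The miRNAs of the region are best known from brain, muscle and pluripotent stem cells.

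Total counts ran from 6291101 to 11264151 reads. At these depths a floor of 3 counts corresponds to 0.266 to 0.477 CPM (reads scaled to 1000000 per table), and such floors, like the intervals below, reflect counting error alone. The libraries numbered 3 stood apart from those numbered 1 and 2 in both groups: their tables list 1186 names in place of 1053, and 108 of 488 miRNAs (22.1%) differed between the sets in a fit that also held the group. Each comparison of CIH with control is therefore given over all 6 libraries, within the libraries numbered 1 and 2, and by library number. The labels do not say whether separate animals or cultures were used, and the p-values thus reflect only how far these libraries differ, possibly for technical reasons.

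The cluster was close to the limit of detection in every library. Its 44 names together held 528, 267 and 648 reads under control conditions and 296, 286 and 421 reads under CIH, which is 0.00275% to 0.00839% of a library. The median of the members' mean levels was 0.258 CPM, against 1.07 CPM over all 929 known names. A mean of at least 1 CPM was reached by 8 of 44 members (18.2%) and by 471 of 929 known names (50.7%). Only miR-127-3p had a mean over 10 CPM, where it ranked 214 by level among the 929.

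Low counts were common among the members: of 264 values, 44 members in 6 libraries, 131 (49.6%) were 0 or 1 read and 160 (60.6%) were under 3 counts. At least 3 counts in every library were reached by 5 members, miR-127-3p, miR-379-5p, miR-381-3p, miR-411-5p and miR-541-5p. At the other end, 15 members had 3 or more counts in no library, and 19 had under 10 reads over all libraries. Members at 0 numbered 10, 18 and 13 in the control libraries, against 11, 11 and 16 under CIH. In a single library this was 22.7% to 40.9% of the members, where 17.4% to 25.7% of all known names were at 0. A count of 0 allows a level up to the floor of that library, so these miRNAs were not detectable at this depth rather than absent.

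The reads came from a few hairpins at both ends of the region. The precursors of the 65 names lie on chromosome 12 of GRCm38 between 109563692 and 109743795, a span of 180.1 kb, and the 44 names in all tables come from 34 hairpins. miR-127-3p alone gave 32.1% of the 2446 member reads, the top 3 names gave 59.4% and the top 10 gave 84.1%.

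**Figure D1:**
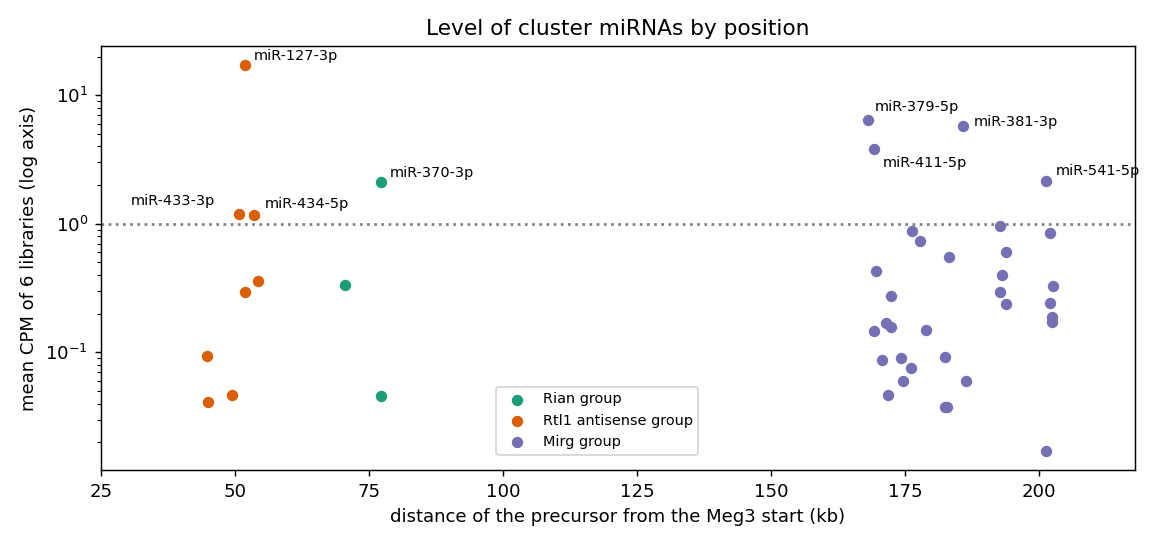
Mean CPM over the 6 libraries (log axis) of the 44 miRNAs in all tables against the distance of their precursor from the start of Meg3 in kb, with the positional groups in colour and a dotted line at 1 CPM. The 8 named miRNAs are those over 1 CPM, and miR-127-3p is the only one over 10 CPM.

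The group antisense to Rtl1 had 8 names in all tables and was carried by miR-127-3p. miR-127 is encoded opposite the Rtl1 coding sequence, to which it is fully complementary and which it is known to silence, and its precursor lies at chromosome 12, 109592846 to 109592915, within the span of Rtl1. miR-127-3p stood at 42.0, 8.44 and 25.7 CPM in the controls, against 15.4, 9.36 and 1.86 CPM under CIH. The groups overlap, since control library 2 lies below CIH libraries 1 and 2. The means were 25.4 ± 16.8 CPM for control libraries, against 8.88 ± 6.78 CPM under CIH (SD, n = 3 each).

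The neighbours of miR-127 with names in all tables were 10-fold or more below miR-127-3p in their means. miR-434-3p, listed only for the libraries numbered 1 and 2, was nearer to it. It stood at 5.88 and 1.44 CPM in the controls, against 1.36 and 1.39 CPM under CIH. miR-433-3p (precursor 109591715 to 109591838) stood at 3.02, 0.823 and 0.121 CPM in the controls, against 2.04, 1.10 and 0 CPM under CIH. miR-434-5p (109594506 to 109594599) stood at 2.54, 1.54 and 0 CPM in the controls, against 1.09, 1.59 and 0.266 CPM under CIH. For both miRNAs the libraries numbered 3 were the low ones in either group, and the 4 other libraries overlapped between groups. The other 5 names in all tables, of the miR-127, miR-136, miR-337, miR-431 and miR-540 hairpins, had means of 0.358 CPM or less. These hairpins are likewise cut from the transcript antisense to Rtl1.

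The Rian group had 3 names, and only miR-370-3p passed 1 CPM. miR-370, reported to act on the fatty acid oxidation gene Cpt1a, has its precursor at 109618258 to 109618336 within the span of Rian, a noncoding RNA that also carries snoRNAs. miR-370-3p stood at 6.36, 1.65 and 0.605 CPM in the controls, against 2.59, 1.29 and 0.0888 CPM under CIH. Each CIH library was below the control library of its number, but the ranges overlap, and the value in CIH library 3 is a single read. miR-341-3p, of the same group, stood between 0.103 and 0.477 CPM in all 6 libraries.

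The Mirg group, the run of hairpins from miR-379 to the noncoding RNA Mirg, had 33 names, of which 4 had a mean over 1 CPM. miR-379-5p, from the first hairpin of the run (109709060 to 109709125), stood at 4.29, 2.37 and 9.32 CPM in the controls, against 2.73, 2.99 and 16.9 CPM under CIH. Its highest value in each group was that of the library numbered 3. miR-411-5p, from the next hairpin (109710175 to 109710256), was the steadiest of the abundant members, at 3.81, 5.14 and 2.66 CPM in the controls, against 4.50, 3.19 and 3.46 CPM under CIH. The groups overlap fully, with means of 3.87 ± 1.24 and 3.72 ± 0.69 CPM (SD, n = 3 each).

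miR-381-3p (109726822 to 109726896) stood at 0.954, 0.514 and 26.6 CPM in the controls, against 1.36, 0.398 and 4.88 CPM under CIH. It was thus at 10 reads or fewer in the libraries numbered 1 and 2 but the most abundant member of control library 3, with 220 reads. miR-541-5p (109742409 to 109742498, within the span of Mirg) stood at 4.13, 0.926 and 1.33 CPM in the controls, against 2.18, 1.10 and 3.28 CPM under CIH, with overlapping groups. Of the next names in order, miR-382-5p, miR-543-3p, miR-409-3p, miR-495-3p, miR-485-5p, miR-300-3p and miR-299a-3p had means from 0.433 to 0.964 CPM. miR-134-5p, of a hairpin known for its role in dendritic spines of neurons, had 22 reads over all 6 libraries.

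**Figure D2:**
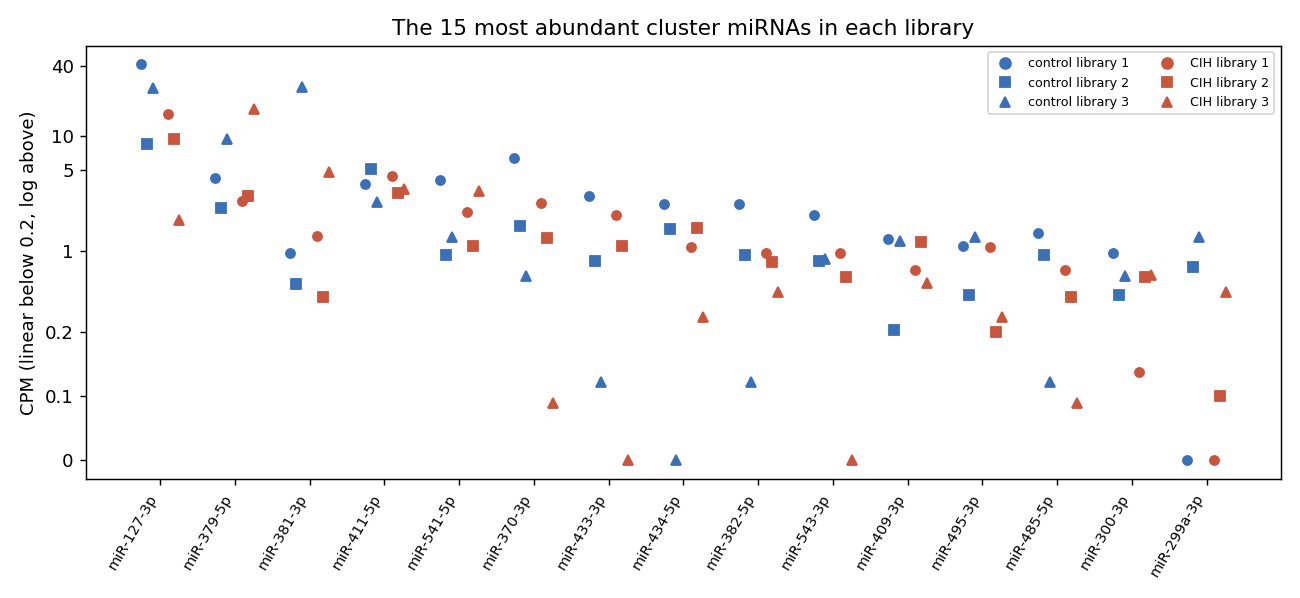
CPM of the 15 most abundant members in each library, on an axis that is linear below 0.2 CPM and logarithmic above it, with control in blue, CIH in red and the library number as the symbol. The triangles of the libraries numbered 3 lie above the other symbols for miR-379-5p and miR-381-3p and at or near 0 for miR-433-3p.

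Summed over the cluster, control libraries 1 and 3 were high and control library 2 was as low as the CIH libraries. The sums were 83.9, 27.5 and 78.5 CPM in the controls, against 40.3, 28.5 and 37.4 CPM under CIH, so the ranges overlap. The means were 63.3 ± 31.1 CPM for control libraries, against 35.4 ± 6.17 CPM under CIH (SD, n = 3 each). By library number, the CIH sum was 0.481 of the control sum in pair 1 (95% interval from counting error 0.415 to 0.555), 1.04 in pair 2 (0.874 to 1.23) and 0.476 in pair 3 (0.420 to 0.539). The intervals of pairs 1 and 3 lie below 1 and overlap each other, and that of pair 2 includes 1. After TMM scaling, which sets the libraries by the bulk of their miRNAs rather than by totals, the ratios were 0.502, 1.22 and 0.273, so pairs 1 and 3 were close to each other only with totals. The TMM-scaled sums were 70.0, 24.9 and 123 CPM in the controls, against 35.2, 30.4 and 33.7 CPM under CIH, and overlapped as well. In bulk RNA, fewer cells of a type and less RNA per cell cannot be told apart.

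Without miR-127-3p the ratios were 0.594 in pair 1, 1.005 in pair 2 and 0.673 in pair 3, and the group means 37.9 ± 17.2 CPM for control libraries, against 26.5 ± 8.31 CPM under CIH (SD, n = 3 each). The positional groups differed most in pair 3. There the Rtl1 antisense group held 233 reads in control and 27 in CIH, a ratio of 0.0850 (0.0548 to 0.127), and the Mirg group 407 and 388 reads, a ratio of 0.699 (0.607 to 0.805). In pair 1 the same groups had ratios of 0.390 (0.316 to 0.478) and 0.637 (0.505 to 0.802), and in pair 2 of 1.13 (0.866 to 1.47) and 0.988 (0.779 to 1.25). These intervals compare single libraries, not the conditions. After TMM scaling the pair 3 ratios were 0.0487 for the Rtl1 antisense group, 0.400 for the Mirg group and 0.385 for the members without miR-127-3p, each over 1.5 times below its value with totals.

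The balance between the proximal hairpins (Rtl1 antisense and Rian groups) and the distal Mirg group does not depend on scaling between libraries. The proximal hairpins gave 66.1%, 46.8% and 37.2% of the member reads in the controls, against 55.1%, 49.3% and 7.84% under CIH. The exact 95% interval for CIH library 3 was 5.46% to 10.8%, below that of each other library. Without miR-127-3p the shares were 32.2%, 23.2% and 6.65% in the controls, against 27.3%, 24.5% and 3.0% under CIH, so both libraries numbered 3 were then low. This measure was added after the levels had been seen.

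**Figure D3:**
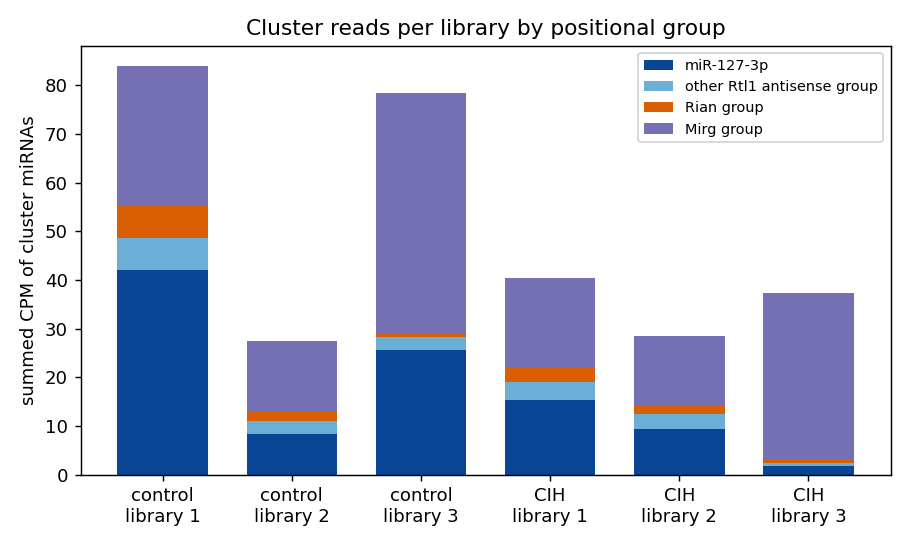
Summed CPM of the 44 members in each library, stacked by miR-127-3p, the other Rtl1 antisense miRNAs, the Rian group and the Mirg group. Control libraries 1 and 3 reach 83.9 and 78.5 CPM and the other 4 libraries 27.5 to 40.3 CPM, and in CIH library 3 nearly the whole bar is the Mirg group.

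In the test of CIH against control over all 6 libraries, 0 members were called. The background was also 0 of 456 miRNAs (0.0%) at an adjusted p under 0.05 (edgeR quasi-likelihood test), with 23 of 456 and 0 members at an unadjusted p under 0.05. DESeq2 and limma-voom called 0 as well, with 37 and 21 of 456 at an unadjusted p under 0.05, among them 1 and 0 members. The 1 was miR-127-3p, lower in CIH (adjusted p = 0.536 by DESeq2). With no filter 3 members were lower at an unadjusted p under 0.05 by edgeR, 37 of 929 names in all, and 0 were called. Only 8 members passed the filter on low counts and entered this fit. The largest differences among them were those of miR-381-3p, at -2.80 on the log2 scale (SE 1.68, adjusted p = 0.885 by edgeR), and miR-127-3p, at -1.73 (SE 0.89, adjusted p = 0.885). For miR-381-3p DESeq2 gave no p-value, and limma-voom put the difference at -0.35 (SE 1.69). Without control library 3 the value of miR-381-3p was 1.72 by edgeR, so that 1 library set its direction.

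The other values were smaller than their errors or close to them. miR-370-3p stood at -1.08 (SE 1.07), miR-409-3p at -0.36 (SE 0.90), miR-434-5p at -0.34 (SE 1.11), miR-411-5p at -0.21 (SE 0.46), miR-541-5p at -0.06 (SE 0.68) and miR-379-5p at 0.05 (SE 0.97). The direction of the last 2 turned with the scaling. With no filter, 12 of 44 members had values above 0 and 32 below, with a median of -0.61 against 0.01 over all 929 names. Many of these rest on a few reads, and 0 were called.

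Within the libraries numbered 1 and 2, 0 of 8 tested members were called, where 43 of 459 miRNAs were (9.37%), 19 higher (4.14%) and 24 lower (5.23%). miR-127-3p stood at -0.86 on the log2 scale (SE 0.73, adjusted p = 0.587 by edgeR) and miR-370-3p at -0.87 (SE 0.58, adjusted p = 0.444). The remaining values ran from -0.43 for miR-541-5p to 0.71 for miR-409-3p. At an unadjusted p under 0.05 edgeR, DESeq2 and limma-voom each counted 0 members, where 99, 74 and 95 of 459 miRNAs were. With no filter 1 member, miR-127-3p, was lower at that level by edgeR, among 115 of 929 names in all. In that fit too 0 members were called. The direction of miR-127-3p and of miR-370-3p rests on control library 1. Without it miR-127-3p stood at 0.59 and miR-370-3p at 0.26, and 7 of 9 tested members were above 0. Without control library 2 they stood at -1.52 (adjusted p = 0.0825 by edgeR) and -1.48. Each of these fits holds 1 control library, which is assumed to vary as the 2 CIH libraries do.

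By library number, the direction over members changed from pair to pair. In pair 1, with 0.5 CPM added, 9 members were higher in CIH, 32 lower and 3 equal, and the median log2 ratio was -0.40. In pair 2, 19 were higher, 16 lower and 9 equal, with a median of 0.00. In pair 3, 16 were higher, 22 lower and 6 equal, with a median of -0.04. Lower in CIH were thus 72.7%, 36.4% and 50.0% of the members in pairs 1, 2 and 3. Of all 929 known names 49.2%, 55.8% and 30.2% were lower and 41.7%, 36.2% and 57.2% higher, with medians of 0.00, -0.04 and 0.24. Over the 471 known names with a mean of at least 1 CPM, the medians were -0.07, -0.16 and 0.73 in pairs 1, 2 and 3. Over the 8 members at that level they were -0.68, 0.09 and 0.01. The 0.73 of pair 3 depends on the scaling by totals.

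Among the 8 members with a mean of at least 1 CPM, 2 were at least 2-fold lower in CIH in pair 1, 0 in pair 2 and 2 in pair 3. That share was above the share of all names in pairs 1 and 3 and below it in pair 2. Each pair holds 1 library per group, and 8 members are few. Of the 8 members with a mean of at least 1 CPM, miR-127-3p and miR-370-3p were at least 2-fold lower in CIH in pair 1, where 8.92% of the 471 names were, and 0 of 8 were 2-fold higher, against 9.13%. In pair 2, 0 of 8 were 2-fold higher or lower, against 2.12% and 8.92% of the names. In pair 3 miR-127-3p, at a log2 ratio of -3.47, and miR-381-3p, at -2.33, were at least 2-fold lower, against 11.3% of the names. There miR-541-5p was 2-fold higher, at 1.05, as were 40.8% of the names. After TMM scaling of pair 3, miR-127-3p stood at -4.23, miR-381-3p at -3.11, miR-370-3p at -1.32 and miR-541-5p at 0.41. That makes 3 of 8 members (37.5%) at least 2-fold lower and 0 higher, against 20.0% and 23.1% of the names.

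Over the 3 libraries of each group, the CPM ranges were separate for 1 of 44 members (2.27%), a share near the background, since of all 929 names 2.91% were separate in that direction, lower in CIH, and 4.41% in the other. The member was miR-136-3p, named after its values were seen, at 4, 2 and 8 reads in the controls, against 1, 2 and 0 reads under CIH. The values that part the ranges are 2 reads each, in control library 2 (0.206 CPM) and CIH library 2 (0.199 CPM). After TMM scaling they stood at 0.187 and 0.213 CPM, and the ranges overlapped. On that scale the ranges were separate for miR-411-3p in its place, beside 3.23% of all names. The counts of miR-136-3p were identical in every library to those of miR-3071-5p, whose precursor (109595318 to 109595397) covers that of miR-136 (109595327 to 109595388). The reads behind the 2 names therefore cannot be assigned to one of them.

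Some members were called between the sets of libraries, where none was called between the groups by edgeR, DESeq2 or limma-voom. With group in the model, 2 of 10 tested members were higher in the libraries numbered 3 (background 11.1%) and 1 was lower (background 11.1%). miR-381-3p was higher, with a log2 difference of 4.54 (SE 0.86, adjusted p = 0.0159 by edgeR) and miR-379-5p by 2.44 (SE 0.36, adjusted p = 0.00836). Both had been read at levels outside the range of the 4 other libraries. miR-433-3p was lower, at -4.31 (SE 1.25, adjusted p = 0.0476). miR-434-5p, at -3.11 (adjusted p = 0.0563), and miR-370-3p, at -2.66 (adjusted p = 0.0742), missed the threshold.

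miR-411-5p, whose hairpin is the neighbour of miR-379, stood at -0.04 (SE 0.40) in the same comparison, and miR-127-3p at -0.44 (SE 1.01). The call of miR-433-3p was lost with size factors in place of TMM (adjusted p = 0.0561) and rests on 1 and 0 reads in the libraries numbered 3. Without control library 1, or without CIH library 2, 0 of the 3 calls held, where 2 of 483 (0.414%) and 2 of 470 (0.426%) of all tested miRNAs were called. The differences stayed close to those with all libraries, at 2.57 and 2.48 for miR-379-5p and 4.18 and 4.47 for miR-381-3p. Without control library 3, 7 of 13 members were called, beside 49.5% of all tested miRNAs, and miR-381-3p was then higher by 2.42. That fit holds CIH library 3 as the only library of its set, which is assumed to vary as the others do. What else differed between the sets is not given in the sources used here, so preparation, sequencing and animals cannot be told apart.

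**Figure D4:**
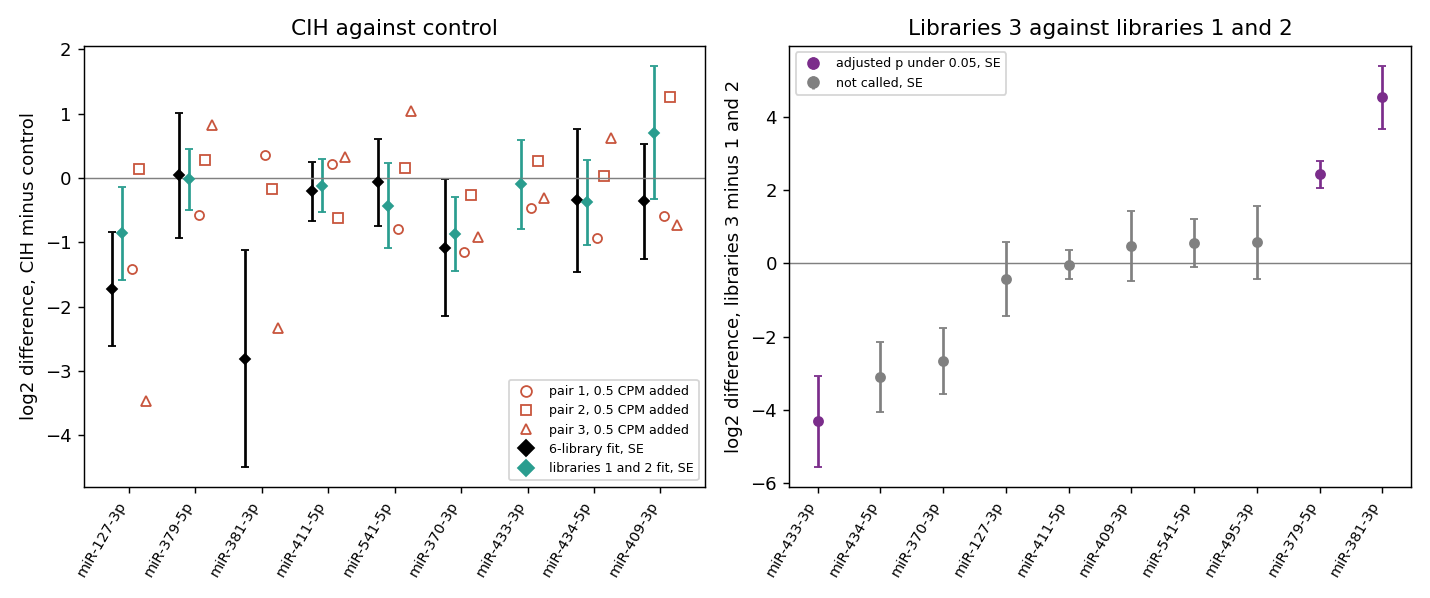
Left, log2 differences of CIH against control for the members tested, from the 6-library fit (black) and the libraries numbered 1 and 2 (green) with SE, beside the log2 ratios of pairs 1, 2 and 3 (open symbols, 0.5 CPM added). Right, log2 differences of the libraries numbered 3 against those numbered 1 and 2 with SE, where miR-381-3p, miR-379-5p and miR-433-3p (purple) had an adjusted p under 0.05.

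Which arm of a hairpin was read could be measured for few hairpins. A hairpin gives a 5p and a 3p strand, of which one is usually kept by Argonaute. In no hairpin did the arms together reach 100 reads in every library, and 3 of 10 hairpins with both arms listed reached 10 reads, a minimum set after the counts were seen. The miR-127 hairpin was read from its 3p arm, with a 5p share of 0.38%, 0% and 4.93% in the controls, against 0%, 2.08% and 4.55% under CIH. The exact 95% intervals of CIH and control libraries of the same number overlapped.

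The 5p arm led in every library for miR-411, at 92.3% to 100% of its reads, and for miR-541, at 90.0% to 100%. Summed over the 6 libraries, miR-370 gave 94 reads from the 3p arm and 2 from the 5p arm. The miR-382 hairpin gave 46 reads from the 5p and 16 from the 3p arm (5p share 74.2%, exact 95% interval 61.5% to 84.5%), and miR-409 gave 14 and 43 (24.6%, 14.1% to 37.8%). These sums pool both groups and weight the libraries by their reads.

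The names listed in only 1 set of tables added little. Of these 21, 9 stood only in the tables numbered 1 and 2 and 12 only in those numbered 3. miR-434-3p had 37 and 14 control reads, against 10 and 14 under CIH, in the libraries numbered 1 and 2. miR-770-3p, from a hairpin within the span of Meg3, had 18 and 2 control reads, against 11 and 10 under CIH, in the same libraries. miR-493-5p had 16 reads in control library 3 and 0 in CIH library 3. The other 18 had 3 reads or fewer in each library. For 5 families, miR-377, miR-539, miR-544, miR-665 and miR-673, no table held a name.

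Other miRNAs of the same locus that the rule leaves out were as low. Of 13 such families, 2 had names in all tables, miR-3071 and miR-1193, and their 3 names summed to 0.0888 to 1.09 CPM. None of the 3 reached a mean of 1 CPM. miRNAs of other imprinted genes were present at higher levels. The 7 names of miR-296, miR-298, miR-335 and miR-483 summed to 115 to 203 CPM in control and 153 to 207 CPM in CIH, led by miR-298-5p, so each library held more of these than of the Dlk1-Dio3 cluster.

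Markers of other cell types in which the cluster is known to be active were read beside it. In the muscle list miR-1b-5p had the counts of miR-1a-3p within 1 read in every library and was left out of the sum. The 6 other muscle names summed to 37.0, 15.8 and 114 CPM in the controls, against 41.2, 14.3 and 29.8 CPM under CIH. The library numbered 2 was thus the lowest of each group for muscle as for the cluster. The same held for the hepatocyte name, miR-122-5p, so this order was not particular to muscle. miR-1a-3p led the muscle list, and the defining miR-133a-3p had 2 to 34 reads. The muscle miRNA miR-206-3p had 121 and 115 reads in the libraries numbered 3 and 6 to 10 reads in the 4 others. It was thus high in the same libraries as miR-379-5p and miR-381-3p. None of the other muscle names was high in both. In control library 3 and CIH library 3 miR-1a-3p stood at 92.4 and 18.4 CPM, against 10.6 to 35.7 CPM in the 4 others. miR-133a-3p had 34 and 8 reads there, against 2 to 12, and miR-499-5p 18 and 6, against 18 to 30. miR-1a-2-5p and miR-1b-3p had the same counts, 0 to 2 reads per library. The 10 embryonic stem cell names summed to 20.5, 18.3 and 42.6 CPM in the controls, against 17.7, 11.3 and 0.0888 CPM under CIH. In CIH library 3, 9 of these 10 were at 0, the library in which miR-127-3p was lowest. The neuronal, epithelial, leukocyte and erythroid sums were also lowest in CIH library 3, and the muscle, stromal, endothelial and hepatocyte sums were not. The 17 neuronal names, in which miR-129b-3p nearly repeats miR-129-5p, summed to 234 to 579 CPM in control and 223 to 578 CPM in CIH. They were led by miR-128-3p, while the defining miR-124-3p had 0 to 72 reads. The part of these cells in the cluster's values was not tested.

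The stromal list (9 names, led by miR-143-3p) summed to 131300, 148292 and 64204 CPM in the controls, against 120269, 102681 and 125354 CPM under CIH. Its members did not move together: in control library 3 and CIH library 3 miR-143-3p stood at 57127 and 55147 CPM, but miR-199a-3p at 3220 and 42469 CPM and miR-214-3p at 126 and 2759 CPM. Leukocyte names (5) summed to 0.266 to 4.45 CPM and the hepatocyte name to 2.09 to 5.59 CPM. Epithelial names (12) ranged from 79.9 to 423 CPM in control and 19.4 to 176 CPM in CIH, endothelial names (3, without miR-126b-3p, whose counts repeat those of miR-126a-5p) from 33.9 to 138 and 73.2 to 105 CPM, and erythroid names (6) from 93.9 to 203 and 56.1 to 195 CPM. Among the erythroid names, miR-486a-3p, miR-486a-5p and miR-486b-3p had nearly the same counts in every library. All of them were kept, so the erythroid sums may hold the same reads more than once. No miRNA list here marks adipocytes alone, so the labelled cell type could not be checked against defining markers.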

How the data were processed

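Each library has 1 table, in which the authors deposited raw read counts by mature miRNA. The header of 3 tables says FPKM, but their values are whole and their totals unequal, so they were taken as counts. Per the submitters' processing notes featureCounts 1.5.0-p3, DESeq 1.8.3 and GRCm38 were used, with no role given. The sources used here do not state the trimming, the aligner, the miRBase release or how reads matching several names were handled. There were 0 columns of other samples. In the tables numbered 1 and 2 all 1053 names had at least 1 read in 1 of the 4 libraries, and in those numbered 3, 937 of 1186 had one.

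CPM are counts per table total. The 929 known names in all tables, 99.97% or more of each library, entered edgeR 4.0.16 and its quasi-likelihood test (TMM, robust, filterByExpr with a minimum count of 10) in R 4.3.3, with Benjamini-Hochberg adjustment at 0.05. The SE is the log2 difference over the square root of F. In the set comparison, group and set were both terms. DESeq2 1.42.0 and limma-voom 3.58.1 were alternatives, beside other scalings, filters, a threshold of 0.1, the library number as a block and leaving out each library. The fits were tested on simulated counts. Ratios of 2 libraries carry exact 95% binomial intervals. Other steps used scipy 1.17.1, numpy 2.4.6, pandas 2.3.3 and matplotlib 3.10.9 in Python 3.11.15.

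Members, lists and tests were chosen with earlier results of these data known. The naming rule took the 15 most abundant members, any called for CIH against control, in each direction the 4 members of lowest p and the most abundant of each positional group. Of members called between sets it took up to 4 in each direction with a mean of at least 10 CPM. Those called had lower means and were named as being among the 15 most abundant. All 65 names matched a precursor in the RefSeq table of GRCm38.p6, and sequences were not used here. Deviations from the group means correlated at 0.31, 0.34 and 0.41 between libraries of equal number 1, 2 and 3, each over 0.1, and the blocked fit took equal numbers as pairs. The correlation of control library 1 was higher with CIH library 2 (0.40) than with its own number.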

Additional observations from a re-analysis of the deposited data

How the results depend on the processing

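The count of 0 members called for CIH against control held under all 15 alternatives over 6 libraries and all 12 within the libraries numbered 1 and 2, leaving out each library included (range 0 to 0). The replicate block left 0 in both fits and changed no call. Between the sets, 3 of 10 tested members (30.0%) were called, where 22.1% of all names were. At a threshold of 0.1 and with DESeq2 this became 5 of 10 (50.0%), against 33.8% and 31.6% of all names. With no filter it was 5 of 44 (11.4%), below the 17.3% of all names. The count was 0 with a mean of at least 10 CPM, where only 1 member is left. Leaving out 1 library moved that count between 0 and 7, and the share of all names between 0.414% and 49.5%.

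Of 105 values of the 8 members over the alternatives of the 6-library fit, 0 were called (smallest adjusted p 0.536, by DESeq2) and 86 kept their sign. The DESeq2 value of miR-381-3p had no p-value and so could not be called. The 19 that turned were these. miR-379-5p stood at -0.080 with DESeq2, -0.07 with size factors and -0.0001 with the set as an added term, and between -1.29 and 1.32 when a library was left out. miR-541-5p stood at 0.058 with totals alone, 0.18 with limma-voom and 0.015 with the replicate block. With limma-voom miR-409-3p stood at 0.10 and miR-434-5p at 0.035. With 1 library left out, miR-541-5p ranged from -0.45 to 0.58, miR-370-3p from -1.80 to 0.011, miR-381-3p from -4.18 to 1.72, miR-409-3p from -0.89 to 0.40 and miR-434-5p from -1.04 to 0.33. Within the libraries numbered 1 and 2, leaving out 1 library moved miR-127-3p between -1.52 and 0.59, miR-370-3p between -1.48 and 0.26 and miR-541-5p between -1.10 and 0.84. Between the sets, miR-411-5p stood at 0.10 with DESeq2 and 0.11 with size factors, and with 1 library left out it ranged from -0.26 to 0.096 and miR-127-3p from -2.82 to 0.91. The causes were not tested.

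The pair 1 median of -0.40 was -0.048 with 5 CPM added, -0.68 over members of at least 1 CPM and -1.42 for miR-127-3p, the only member over 10 CPM. The pair 3 median of -0.04 was -0.31 after TMM scaling and -3.47 for miR-127-3p. The median over known names in pair 3 was 0.24 with no filter. With the 10 most abundant miRNAs left out of the total, the cluster sums were 332 CPM in control and 160 CPM in CIH by construction, and without miR-127-3p the CIH sum was 26.5 CPM. Leaving out 1 library moved the means between 53.0 and 81.2 CPM in control and between 32.9 and 38.9 CPM in CIH. Without miR-127-3p the proximal share in control was 20.7%. The count of hairpins with arm shares was 3 at 10 reads and 0 at 100 and 500. Of the member values, 60.6% lie under the floor of 3 counts, so depth limits what could be seen.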
